A study of Mus musculus with 1 sample.

Results

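The 9 genes described here carry iron into cells, move it within them, store it and export it. They are Tfrc, Slc11a2, Steap3, Slc25a37, Slc25a38, Slc40a1, Fth1, Ftl1 and Hmox1, chosen by symbol from the 32285 genes of a single-cell RNA count matrix. All 9 symbols matched 1 gene each. The matrix came from 1 library of control bone marrow cells, so there was no replicate and no test between animals, and every interval below covers counting error only.

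The library held lineage-negative, Kit-positive cells of the femora and tibiae of C57BL/6 mice, a mixture of blood stem cells and early progenitors. Their genotype was CD45.2(+) Brd9fl/fl, which carries a floxed Brd9 gene (a subunit of a chromatin remodelling complex) without the Mx1-Cre driver that would delete it. Mice had received polyinosinic-polycytidylic acid (pIpC, an inducer of interferon) at 20 mg/kg in 3 doses, and cells were taken 8 weeks later. The sample labels name a CD45.1(+) CD45.2(-) transplant recipient, but elsewhere the study describes primary animals rather than transplant recipients, and this was not settled. The Brd9-deleted library is not analysed here.

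Transferrin-bound iron enters a cell through the transferrin receptor, is reduced and released from the endosome, and is then passed to mitochondria for haem and iron-sulphur clusters, stored in ferritin shells or exported by ferroportin. Developing red cells take up more iron than any other cell of the marrow because they make haemoglobin, while macrophages recover iron from old red cells by breaking down haem. Several of these messages carry a short hairpin, the iron-responsive element, to which iron regulatory proteins bind when iron is scarce: in the 5′ untranslated region this blocks translation, and in the 3′ untranslated region it protects the message from decay.

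The hairpins below are shown because such elements are known to control protein or message, which RNA levels alone do not show. They were found in GENCODE M21 transcripts of the GRCm38 build by a pattern of an unpaired C, 5 paired upper-stem bases, a 6-base loop CAGTGN and at least 3 of 5 paired lower-stem bases. Capitals mark the unpaired C and the loop. Tfrc held 4 of them in its 3′ untranslated region, and Slc40a1, Fth1, Ftl1 and the haem synthesis gene Alas2 held 1 each in the 5′ untranslated region. A site was counted if any searched transcript of the gene held it, so other transcripts may lack it.
Tfrc, chr16:32631220-32631246, plus strand: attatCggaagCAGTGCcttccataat
Tfrc, chr16:32631599-32631625, plus strand: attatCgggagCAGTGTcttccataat
Tfrc, chr16:32631664-32631690, plus strand: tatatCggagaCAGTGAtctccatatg
Tfrc, chr16:32631711-32631737, plus strand: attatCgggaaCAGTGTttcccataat
Slc40a1, chr1:45925466-45925492, minus strand: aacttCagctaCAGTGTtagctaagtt
Fth1, chr19:9982733-9982759, plus strand: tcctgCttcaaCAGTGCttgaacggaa
Ftl1, chr7:45459780-45459806, minus strand: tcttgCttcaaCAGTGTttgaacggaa
Alas2, chrX:150547459-150547485, plus strand: tggttCgtcctCAGTGCagggcaacag
The same pattern lay somewhere in a protein-coding transcript of 95 of 21877 genes (0.434%). It was not in the transcripts searched for Slc11a2, Steap3, Slc25a37, Slc25a38 and Hmox1. This says only that these letters and pairs were absent there, not that these genes lack an iron-responsive element.

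The 5 genes of uptake and mitochondrial transport lay on different chromosomes of GRCm38. Tfrc spans chr16:32608920-32632794 on the plus strand, Slc11a2 chr15:100387898-100425072 on the minus strand, Steap3 chr1:120190757-120272705 on the minus strand, Slc25a37 chr14:69241848-69285112 on the minus strand and Slc25a38 chr9:120110374-120124504 on the plus strand. Slc40a1 lies at chr1:45908068-45926523 on the minus strand, Fth1 at chr19:9980598-9985098 on the plus strand, Ftl1 at chr7:45457944-45459884 on the minus strand and Hmox1 at chr8:75093621-75100589 on the plus strand. None of the 9 overlapped another gene of the matrix on its own strand. Ferritin genes have near-identical processed copies in the genome, so their counts are less certain than the rest; the copy Ftl1-ps1 held 1306 unique molecular identifiers (UMIs, tags that mark single captured RNA molecules) against 223090 for Ftl1. Promoters of 300 bases, given by RefSeq for GRCm38.p6, matched 5 of the 9 genes with 10 start sites, and the GATA-type letters AGATAA, read on both strands, were in 1 of these (a Steap3 promoter) and in 11.2% of all 32851 promoters.

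After the study's own limits on UMIs, genes and mitochondrial share, 7645 of 8817 barcodes were kept, with 1592 to 49991 UMIs per cell (median 18696) and 151852381 UMIs in all. Cells were put into classes by lists of marker genes, none of which holds any of the 9 genes. This gave 12 named classes with 5401 cells, of which 10 had over 100 cells, and 2211 cells met no list clearly enough. A further gate for T or NK cells (33 cells) was left unnamed, because 31 of them held the marker Nkg7 but only 4 held at least 2 of the T cell genes Cd3e, Cd3d and Trbc2, and 22 held the granulocyte gene Elane. The 1031 erythroid cells were the deepest class (median 34355 UMIs), against 20247 in the 697 monocyte cells and 8411 in the 599 stem cells, so levels are given as counts relative to the class total (CPM): the UMIs of a gene summed over the cells of a class, per 1000000 UMIs of that class. All 8 erythroid, all 8 monocyte and all 8 stem markers were at least 2-fold higher in their class than in the other cells. Cells were gated on these same markers, so this describes the gates and does not test the class names. The erythroid class was led by Hba-a1, Hbb-bt and Hbb-bs, the monocyte class by Trem2, S100a4 and Klf4, and the stem class by Procr, Cldn5 and Nkx2-3. Of these, Klf4 and Procr are gate markers themselves. Scores near the limit are common in such gates: 1153 cells (15.1%) had a best score within 0.25 of it.

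In erythroid cells 7 of the 9 genes were at least 2-fold higher than in stem cells, and none of the 8 with enough counts was 2-fold lower. A gene was compared if the pair of classes held 50 or more UMIs for it. Over all 11198 such genes 13.7% were that much higher and 34.3% that much lower. The median ratio of the 8 genes was 7.02, beside 0.780 over all genes compared. Against monocyte cells the same 7 genes were at least 2-fold higher and Hmox1 was lower, where 14.2% of 11044 genes were higher and 21.2% lower, with medians of 7.98 for the 9 genes and 1.04 for all. Erythroid cells were 13.5% of the cells kept and gave 22.9% of all UMIs, but 77.5% of the Slc40a1, 70.0% of the Tfrc, 68.2% of the Steap3, 67.4% of the Slc25a38 and 62.4% of the Slc11a2 UMIs. Their share was 46.2% for Fth1, 44.9% for Slc25a37, 29.1% for Ftl1 and 2.52% for Hmox1.

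**Figure D1:**
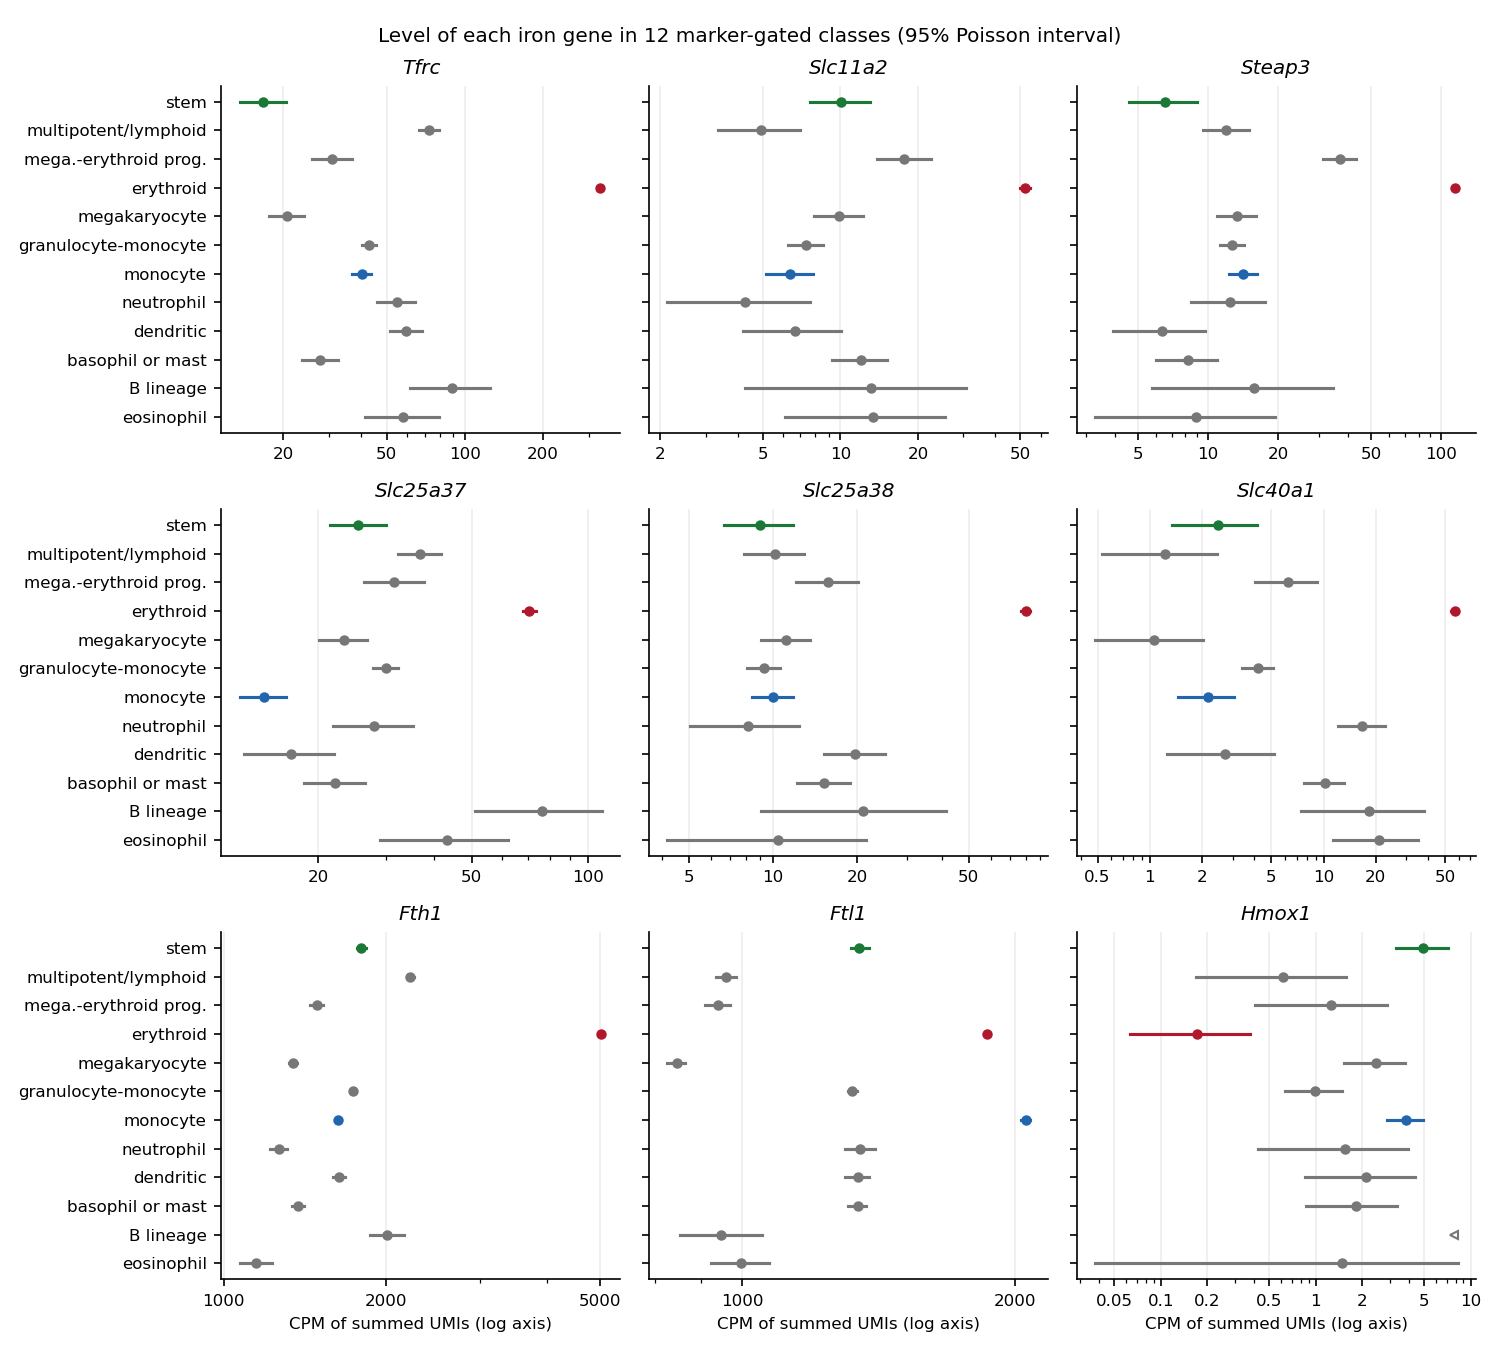
Level of each gene (CPM of summed UMIs, log axis) in 12 marker-gated classes; points are values, lines are 95% Poisson intervals, and the hollow triangle marks the limit of 3 UMIs where none was found. Erythroid cells (red) lie to the right of the other classes of over 100 cells for all genes but Ftl1, where monocyte cells (blue) are highest at 2056 CPM, and Hmox1, where erythroid cells hold 0.172 CPM.

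Tfrc, the transferrin receptor that brings iron-loaded transferrin into the cell, stood at 332 CPM in erythroid cells (95% interval 326 to 338, 11563 UMIs), 40.1 CPM in monocyte cells (36.9 to 43.5) and 16.8 CPM in stem cells (13.6 to 20.5). The erythroid level was 19.8 times the stem level (16.2 to 24.5) and 8.27 times the monocyte level (7.61 to 9.01). Between these lay multipotent and lymphoid-primed cells at 73.0 CPM, dendritic cells at 59.6, neutrophil cells at 54.7 and granulocyte-monocyte cells at 42.8 CPM. Stem and megakaryocyte cells (20.7 CPM) were lowest and did not differ beyond counting error. A Tfrc UMI was found in 97.9% of erythroid cells and 14.2% of stem cells, and when every cell was thinned to 5000 UMIs in 73.0% and 7.14%.

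Tfrc thus separated stem cells from their lymphoid-primed neighbours as well as from erythroid cells. The ratio of multipotent and lymphoid-primed over stem cells was 4.35 (3.49 to 5.49), and that of dendritic over stem cells 3.56 (2.77 to 4.59). The megakaryocyte-erythroid progenitor cells, marked by Gata1 and Gata2, were at 31.0 CPM, 1.85 times the stem level (1.40 to 2.44).

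Steap3, the endosomal enzyme that reduces iron after it leaves transferrin, had 115 CPM in erythroid cells (111 to 118), 14.2 CPM in monocyte cells (12.3 to 16.2) and 6.53 CPM in stem cells (4.6 to 9.0, only 37 UMIs). Megakaryocyte-erythroid progenitor cells held 36.7 CPM, 5.62 times the stem level (3.90 to 8.30), a larger step than for Tfrc or for Slc11a2 (1.76, 1.23 to 2.54). The erythroid over stem ratio was 17.6 (12.7 to 25), from that thin stem count. It was 9.27 with a stricter cell filter and 32.7 after thinning, both outside the counting interval, and the cause was not tested.

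Slc11a2, the transporter DMT1 that passes reduced iron out of the endosome, reached 52.0 CPM in erythroid cells (49.6 to 54.5), 10.1 CPM in stem cells (7.62 to 13) and 6.39 CPM in monocyte cells (5.15 to 7.83). Its erythroid level was 5.17 times that of stem cells (3.97 to 6.86) and 8.15 times that of monocyte cells (6.61 to 10.2). Megakaryocyte-erythroid progenitor cells came next at 17.7 CPM. Unlike Tfrc, it was lower in multipotent and lymphoid-primed cells (4.92 CPM) than in stem cells, with a ratio of 0.489 (0.307 to 0.767) from 32 and 57 UMIs.

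Slc25a38, a mitochondrial carrier of glycine for haem synthesis rather than of iron itself, had 79.7 CPM in erythroid cells (76.8 to 82.8), 9.99 CPM in monocyte cells and 9.0 CPM in stem cells. The erythroid level was 8.86 times that of stem cells (6.72 to 11.9) and 7.98 times that of monocyte cells (6.75 to 9.50). Dendritic cells, at 19.7 CPM, were the highest of the other classes of over 100 cells and did not differ beyond counting error from megakaryocyte-erythroid progenitor cells at 15.7 CPM.

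Slc25a37, mitoferrin-1, which carries iron into the mitochondria of red cell precursors, showed the smallest erythroid excess of the transporters. It was at 70.5 CPM in erythroid cells (67.8 to 73.4), 25.4 CPM in stem cells (21.4 to 29.9) and 14.4 CPM in monocyte cells (12.5 to 16.5), with ratios of 2.78 over stem (2.35 to 3.31) and 4.89 over monocyte cells (4.24 to 5.66). Multipotent and lymphoid-primed cells held 36.7 CPM. Monocyte cells had the lowest value, which did not differ from that of dendritic cells (16.9 CPM) beyond counting error, and stood at 0.483 times the granulocyte-monocyte level (0.411 to 0.564). The 25 B lineage cells held 76.2 CPM from 29 UMIs (51.0 to 109), not beyond counting error of the erythroid level.

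Slc40a1, ferroportin, the exporter of iron from cells, had the widest spread between classes of the transporters, from 56.8 CPM in erythroid cells (54.3 to 59.4, 1979 UMIs) to 2.47 CPM in stem cells (14 UMIs), 2.15 CPM in monocyte cells (31 UMIs) and 1.06 CPM in megakaryocyte cells (9 UMIs). Erythroid cells were 23.0 times above stem cells (13.7 to 42.1) and 26.4 times above monocyte cells (18.5 to 39.0). A UMI was found in 80.1% of erythroid cells and, after thinning to 5000 UMIs, in 24.0% of erythroid, 0.850% of stem and 0.576% of monocyte cells. Macrophages are known to carry ferroportin, and 1 barcode in the monocyte class with all 10 macrophage markers held 17 of the 31 Slc40a1 UMIs. Without that barcode, left out after the values were seen as the monocyte cell with 3 or more such markers, monocyte cells were at 0.972 CPM (0.531 to 1.63) and the erythroid over monocyte ratio was 58.4. It was 14.1 from the mean of per-cell levels and 15 after thinning.

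Slc40a1 was also present outside the erythroid class. Neutrophil cells held 16.7 CPM (12.1 to 22.5, 43 UMIs in 136 cells), 3.98 times the granulocyte-monocyte level of 4.19 CPM (2.71 to 5.75), and basophil or mast cells held 10.2 CPM (7.68 to 13.2). In neutrophil cells 5 of the 10 macrophage markers had a UMI, with a summed level of 130 CPM, of which Vcam1 alone gave 126 CPM. C1qa, C1qb, C1qc, Cd5l and Spic were at 0 there, and no neutrophil cell held 3 or more of the markers. In erythroid cells the summed macrophage level was 1.49 CPM, and C1qb, C1qc, Cd5l and Spic were at 0. The part of macrophage RNA in the neutrophil value was not tested.

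Free RNA from broken cells adds UMIs to every droplet, and haemoglobin and red cell membrane genes, which no non-erythroid class should make, gauge it. In monocyte cells the summed haemoglobin genes were at 1.15% and the membrane genes at 1.05% of the erythroid level, and in stem cells at 2.19% and 1.61%. Tfrc, Slc11a2, Steap3 and Slc25a38 in monocyte cells stood at 12.1%, 12.3%, 12.4% and 12.5% of their erythroid level, above both gauges. In stem cells Tfrc and Steap3 stood at 5.05% and 5.70%. Slc40a1 was nearer to the gauges, at 4.35% in stem cells and 3.79% in monocyte cells, the latter with the macrophage-marked barcode, without which the monocyte level went from 2.15 to 0.972 CPM. In megakaryocyte cells Slc40a1 was at 1.86%, between the haemoglobin genes at 1.16% and the membrane genes at 2.02%. In multipotent and lymphoid-primed cells it was at 2.16%, below both gauges at 2.39% and 2.32%. The low Slc40a1 level in these classes cannot be told apart from background.

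Fth1, the heavy ferritin chain that oxidises iron as it is stored, gave the most UMIs of the 9 genes in erythroid cells, where a UMI marks 1 captured molecule whatever its length, at 5032 CPM (5010 to 5060), against 1803 CPM in stem cells (1770 to 1840) and 1634 CPM in monocyte cells (1610 to 1650). These ratios were 2.79 (2.74 to 2.85) and 3.08 (3.04 to 3.12). After thinning to 5000 UMIs the median erythroid cell held 25 Fth1 UMIs (quartiles 17 and 33), while stem cells held 9 and monocyte cells 8. The lowest of the classes of over 100 cells was the neutrophil class at 1266 CPM. Every class thus expressed Fth1, and all of them but the erythroid class lay at or below the 2223 CPM of multipotent and lymphoid-primed cells.

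Ftl1, the light chain that favours mineral growth within the shell, did not follow Fth1. Monocyte cells were highest at 2056 CPM (2030 to 2080), erythroid cells held 1862 CPM (1850 to 1880), and stem cells 1346 CPM (1320 to 1380). The erythroid over monocyte ratio was 0.905 (0.893 to 0.918) and erythroid over stem 1.38 (1.35 to 1.42), neither past 2-fold. Neutrophil, stem, dendritic, basophil or mast and granulocyte-monocyte cells lay between 1323 and 1349 CPM, and neighbours in that order did not differ beyond counting error.

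The ratio of Fth1 to Ftl1 UMIs within a class does not depend on the total used for CPM, and 3′ counting makes it a ratio of molecules caught, free of transcript length. It was 2.70 in erythroid cells (2.68 to 2.73), 1.34 in stem cells (1.30 to 1.38) and 0.794 in monocyte cells (0.781 to 0.808). In neutrophil cells it was 0.938 (0.894 to 0.984). Capture and mapping can differ between genes, so the ratio is read between classes, and a value of 1 does not mark equal RNA. In granulocyte-monocyte cells the ratio was 1.32 (1.30 to 1.34), and in multipotent and lymphoid-primed cells 2.32 (2.25 to 2.39), nearest to the erythroid class among those of over 100 cells. Counted by cell, 99.7% of erythroid cells held more Fth1 than Ftl1 UMIs, as did 97.1% of multipotent and lymphoid-primed, 69.3% of stem and 28.4% of monocyte cells. These cells were not thinned, and median depth was 34355 UMIs in erythroid and 8411 in stem cells. The shares therefore depend on depth as well as on the ratio.

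**Figure D2:**
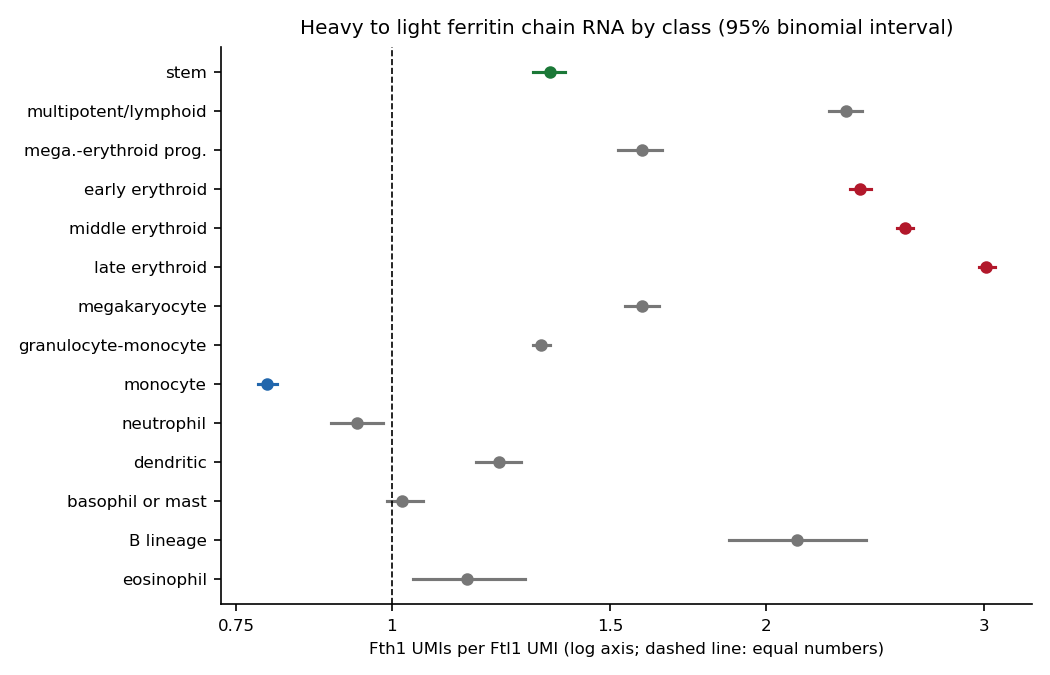
Fth1 UMIs per Ftl1 UMI (log axis) by class, with 95% binomial intervals and a dashed line at equal numbers of UMIs. Monocyte cells (blue) and neutrophil cells lie below 1, and the erythroid groups (red) run from 2.38 in early to 3.01 in late cells.

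Hmox1, haem oxygenase 1, which breaks haem down and frees its iron, was scarce everywhere: 238 UMIs in 2.71% of all cells kept. Stem cells had 4.94 CPM (3.28 to 7.14, 28 UMIs) and monocyte cells 3.82 CPM (2.88 to 4.97, 55 UMIs), which did not differ beyond counting error. Erythroid cells had 0.172 CPM (0.0632 to 0.375) from only 6 UMIs, found in 5 of 1031 cells (0.485%), none of which was left after thinning. The erythroid over monocyte ratio was 0.0451 (0.0159 to 0.105). With so few UMIs it was 0.0247 with doublet calls removed, 0.0800 with the odd-numbered markers and 0 after thinning. The 34 UMIs of erythroid and stem cells together were below the 50 needed for that comparison. Monocyte cells were 3.84 times above granulocyte-monocyte cells (2.32 to 6.54).

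**Figure D3:**
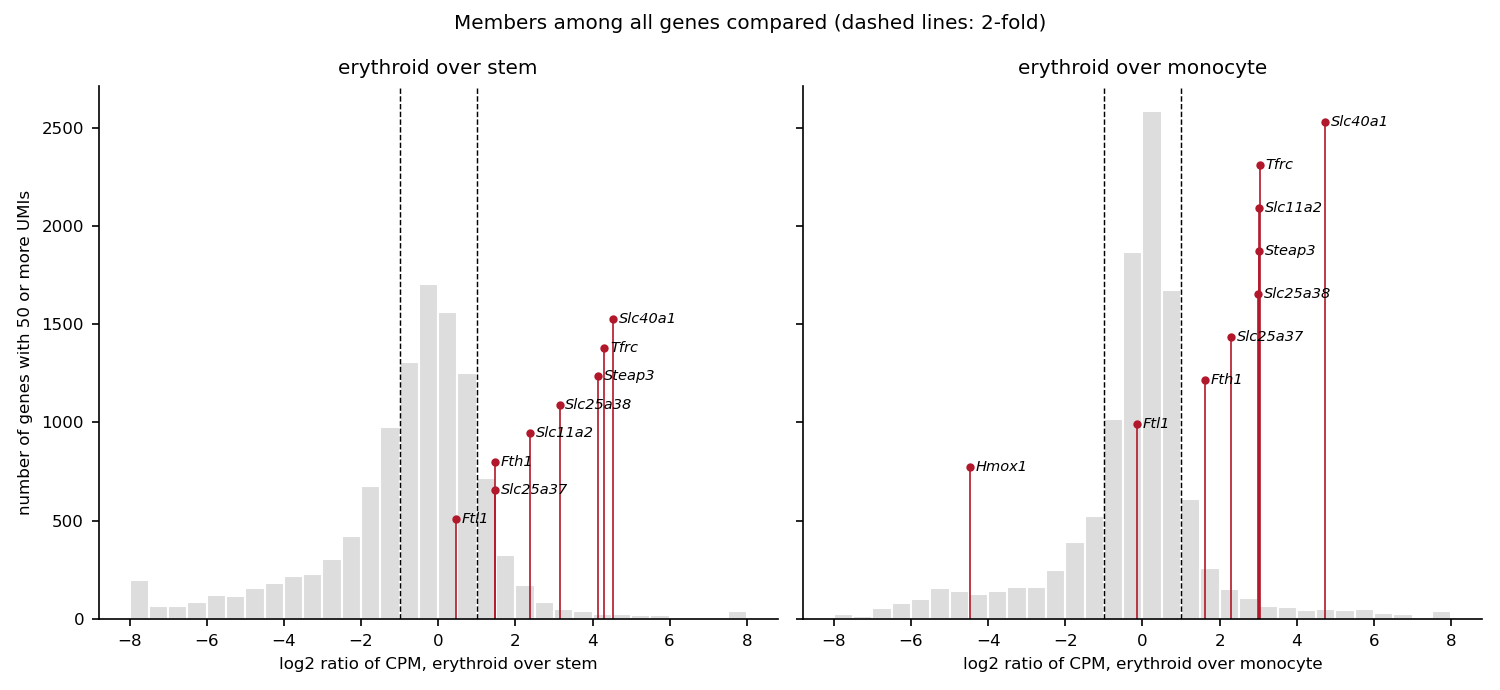
Number of genes (bars) by log2 ratio of CPM in erythroid over stem cells and erythroid over monocyte cells, among genes with 50 or more UMIs in both classes together; the end bars hold all genes beyond the axis, and red stems mark the iron genes. In both panels 7 iron genes lie right of the 2-fold line, Ftl1 lies between the lines, and Hmox1 (second panel) lies left, at a ratio of 0.0451.

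Monocyte and stem cells were much closer to each other. Of 8 genes with enough counts, 2 were at least 2-fold higher in monocyte cells and none lower, where 11.0% of 10935 genes were higher and 26.1% lower, and the medians were 1.01 for the 8 genes and 0.814 for all. The 2 genes were Tfrc, with a ratio of 2.39 (1.92 to 3.00), and Steap3, with 2.17 (1.52 to 3.17). After thinning Steap3 stood at 5.24. It was under 2-fold with a stricter cell filter (1.07), no filter (1.70), a looser score limit (1.91) or the even-numbered markers alone (1.59). Ftl1 was 1.53 times higher in monocyte cells (1.49 to 1.57), Slc25a37 stood at 0.568 (0.457 to 0.708), Slc11a2 at 0.635 (0.451 to 0.899), and Slc25a38, Fth1 and Hmox1 at 1.11, 0.906 and 0.773.

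To follow the genes through red cell development, erythroid cells were ordered by the summed CPM of 8 red cell membrane genes and divided into early, middle and late groups of 343, 345 and 343 cells. These are ranges of a score, not cell types. In late cells 4 of 8 genes were at least 2-fold above early cells and none below, where 7.36% of 9357 genes were higher and 13.9% lower. The median ratio was 1.94 for the 8 genes and 0.918 for all. With the odd-numbered markers alone only Slc25a37 passed 2-fold, and Tfrc, Slc25a38 and Fth1 stood at 1.97, 1.99 and 1.92.

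Slc25a37 had the steepest course. It was at 18.3 CPM in early cells (15.9 to 20.9), 38.6 CPM in middle cells (35.2 to 42.2) and 164 CPM in late cells (157 to 172), so late cells were 8.98 times above early ones (7.79 to 10.4). Early erythroid cells lay below stem cells, at a ratio of 0.721 (0.581 to 0.896), and below megakaryocyte-erythroid progenitor cells, at 0.582 (0.465 to 0.731). The late group held 1764 of the 2457 erythroid UMIs. Alas2, the first enzyme of haem synthesis in red cells, went from 0.171 CPM (2 UMIs) in early to 50.05 CPM (537 UMIs) in late cells.

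Slc40a1, Steap3 and Slc11a2 behaved otherwise, being high already in early cells. Slc40a1 was at 49.2 CPM in early (45.3 to 53.4), 62.7 CPM in middle and 58.2 CPM in late cells (53.8 to 63.0), and early cells were 19.9 times above stem cells (11.8 to 36.7). Steap3 stood at 95.9, 123 and 125 CPM in the 3 groups, and the middle and late groups did not differ beyond counting error. Slc11a2 stood at 44.2, 52.6 and 59.8 CPM, a late over early ratio of 1.35 (1.20 to 1.52).

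Tfrc, Slc25a38 and Fth1 were higher in each successive group, starting from a level above stem cells. Tfrc was at 211, 342 and 452 CPM, a late over early ratio of 2.15 (2.04 to 2.25). Slc25a38 was at 47.1, 82.7 and 112 CPM, a ratio of 2.38 (2.15 to 2.64). Fth1 was at 3163, 5109 and 6980 CPM, a ratio of 2.21 (2.18 to 2.23), and Ftl1 at 1329, 1971 and 2316 CPM, a ratio of 1.74 (1.71 to 1.78). Early erythroid cells did not differ from stem cells in Ftl1 beyond counting error (0.987, 0.960 to 1.01), while their Fth1 was 1.75 times higher (1.72 to 1.79). Hmox1 had 2, 3 and 1 UMIs in the groups, too few to compare.

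**Figure D4:**
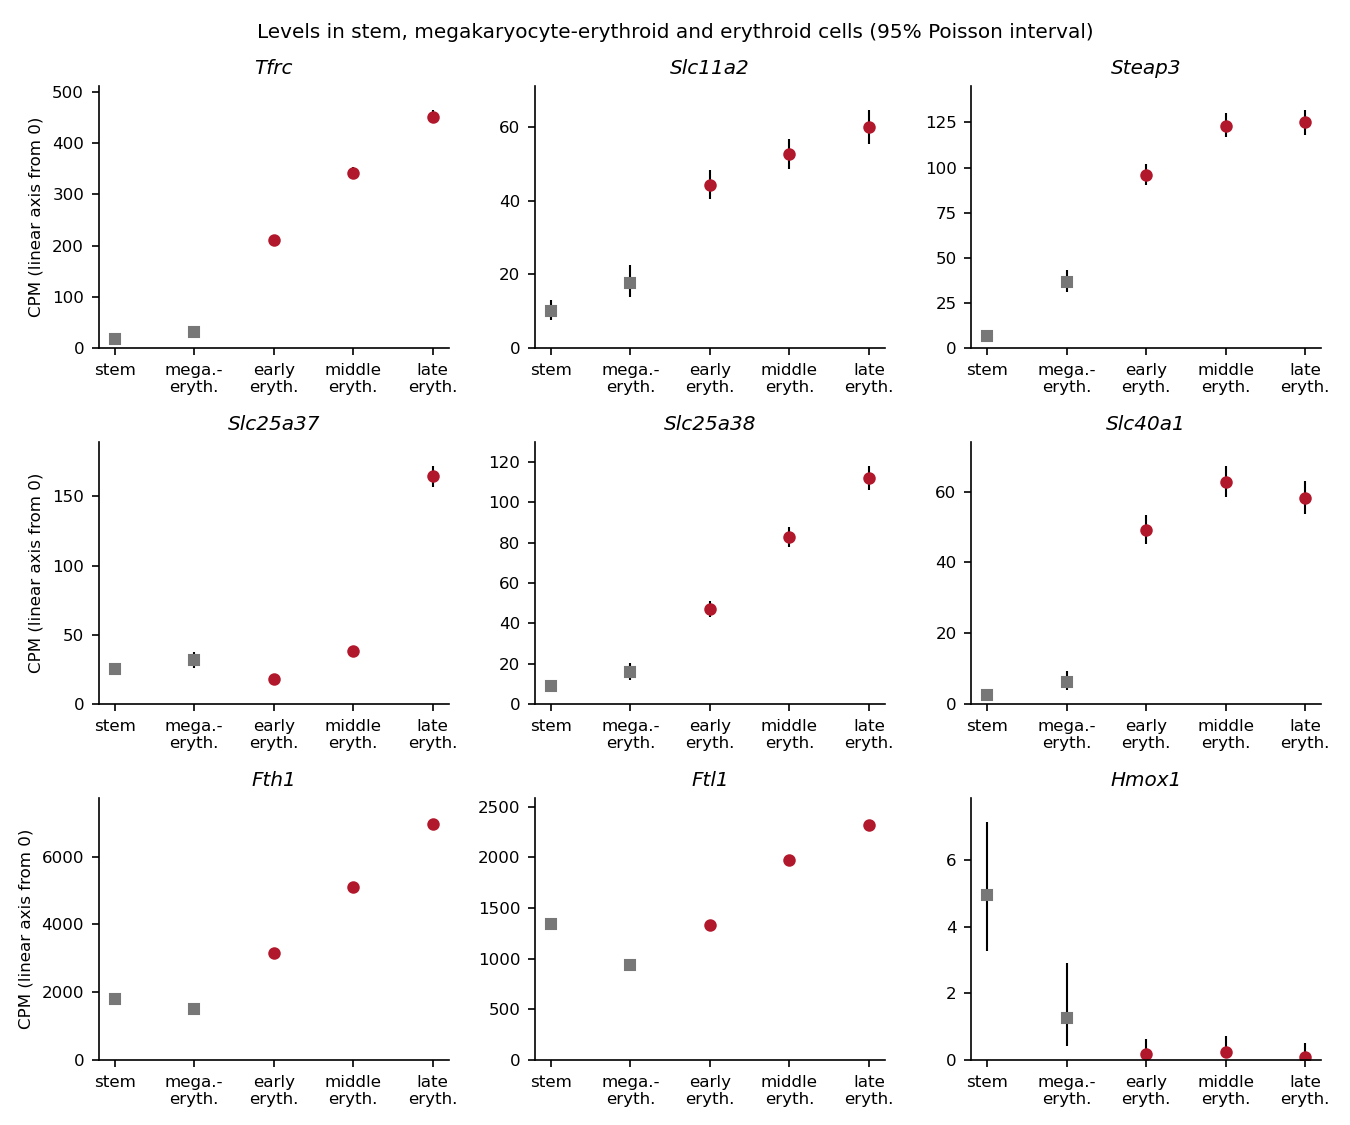
CPM of each gene (linear axes from 0, with 95% Poisson intervals) in stem and megakaryocyte-erythroid progenitor cells (grey squares) and in early, middle and late erythroid cells (red circles). Slc25a37 goes from 18.3 CPM in early and 38.6 CPM in middle cells to 164 CPM in late cells, whereas Slc40a1 is at 49.2 CPM in early cells and 58.2 CPM in late cells.

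Cell division moved with this order. The share of cells with a Mki67 or Top2a UMI after thinning was 90.1% in early and 100% in late erythroid cells, and Kit, the receptor used for the sort, went from 112 to 8.02 CPM. Within early cells, the 308 cycling and 34 other cells had Tfrc at 209 and 229 CPM (ratio 0.914, 0.796 to 1.05) and Slc40a1 at 49.7 and 44.1 CPM (1.13, 0.825 to 1.58). Fth1 was slightly higher in cycling early cells (1.07, 1.03 to 1.11). Slc25a37 was at 4.46 times the level of other cells in cycling erythroid cells as a whole (2.91 to 7.22), but at 1.20 within early cells (0.711 to 2.19) and 2.06 within middle cells (0.938 to 5.64), where 9 cells were not cycling. In middle cells Fth1 and Ftl1 were higher in cycling cells, at 1.1 (1.05 to 1.16) and 1.22 (1.12 to 1.33). In multipotent and lymphoid-primed cells Tfrc was higher in cycling cells, at 79.6 against 56.0 CPM (1.42, 1.14 to 1.79), and so was Steap3, at 15.5 against 3.26 CPM from 72 and 6 UMIs. In stem cells 27.6% were cycling, and Tfrc there was at 19.9 against 15.1 CPM (1.31, 0.844 to 2.02). Ftl1 was lower in cycling stem cells, at 1108 against 1456 CPM (0.761, 0.723 to 0.801). The part of the cell cycle in the erythroid course was not tested beyond these values.

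Of the 61 other genes of iron and haem handling that were listed by role, 41 had enough counts in erythroid and stem cells, and 18 were at least 2-fold higher and 6 lower in erythroid cells, with a median ratio of 1.87. Over all genes 13.7% were higher and 34.3% lower, with a median of 0.780. Against monocyte cells 18 of 45 were higher and 10 lower, where 14.2% of all genes were higher and 21.2% lower, so the number lower was near that of any genes. Of the 9 haem synthesis genes, 8 were higher than in stem cells, beside 13.7% of all genes, and 8 were higher than in monocyte cells, beside 14.2%. The exception, Alas1, the enzyme of the first step outside red cells, had 20.95 CPM in erythroid, 20.5 CPM in stem and 132 CPM in monocyte cells.

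The haem synthesis genes named here were Alas2, Cpox and Alad. Alas2 was 127 times above monocyte cells, a ratio set by 2 monocyte UMIs (35.1 to 1050). Cpox was 16 times above monocyte cells (14.6 to 17.5) and Alad 11.5 times (10.6 to 12.6). From early to late erythroid cells 8 of the 9 were again at least 2-fold higher, beside 7.36% of all genes, and their median ratio was 2.88, beside 0.918.

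Among genes of iron entry and its sensing in plasma, Tfr2, a second transferrin receptor, was at 66.2 CPM in erythroid, 52.9 CPM in stem and 1.80 CPM in monocyte cells, so that it was 36.7 times above monocyte cells (25 to 56.3) but only 1.25 times above stem cells (1.11 to 1.41). Slc39a8, a metal importer, was 9.92 times above stem cells (6.46 to 16.1). In the other direction, transferrin itself (Trf) was at 56.6 CPM in monocyte and 1.67 CPM in erythroid cells, a ratio of 0.0294 (0.0221 to 0.0384). Hfe, a partner of transferrin receptors, and Lcn2, which binds bacterial iron carriers, had ratios of 0.0353 (0.0202 to 0.0580) and 0.0480 (0.0298 to 0.0742).

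Of the genes that handle haem and haemoglobin, Blvrb, a biliverdin reductase abundant in red cells, was 26.2 times above monocyte cells (24.5 to 28.1). Hp, haptoglobin, which binds free haemoglobin, and Lrp1, a scavenger receptor, were lower in erythroid cells, with ratios of 0.0237 (0.0208 to 0.0268) and 0.0320 (0.0162 to 0.0576). In the iron sensing machinery, Ireb2, which encodes iron regulatory protein 2, had ratios of 0.880 over stem (0.753 to 1.03) and 0.971 over monocyte cells (0.868 to 1.09), and Aco1, which encodes iron regulatory protein 1, was at 1.98 (1.58 to 2.52) and 2.46 (2.08 to 2.91). Ncoa4, the receptor that sends ferritin to be degraded, was lower in erythroid cells at 28.4 CPM than in stem cells at 90.7 CPM (0.313, 0.281 to 0.349). Aco1, Ireb2, Ncoa4 and Alas1 were named after their values were seen.

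Across the 10 classes of over 100 cells, the genes whose log2 CPM (with 10 CPM added) ran most like each iron gene were taken from 9538 genes. All points came from 1 library, and 10 points that differ mainly by the erythroid class give high correlations easily, so these are descriptions. Slc25a38 ran most like Hba-a1 (Pearson r 0.978) and Hbb-bs (0.972), and Slc40a1 like Abcb10 (0.974), a mitochondrial transporter of red cell precursors, Pnp2 (0.961) and Acp5 (0.921). Tfrc ran most like Slc29a1 (0.938), Slc39a8 (0.925) and Fcf1 (0.920), and Fth1 like Slc29a1 (0.95), Prdx2 (0.95) and Camsap2 (0.944). Slc11a2 ran most like Rabgef1 (0.990), Rfesd (0.983) and Blvrb (0.978), Steap3 like Mthfd1 (0.961), Bms1 (0.959) and Cars (0.956), and Slc25a37 like Spata24 (0.931), Nanp (0.929) and Bag2 (0.922). Ftl1 ran most like its own copy Ftl1-ps1 (0.880), with which it may share reads, then Evi5 (0.863) and Mfsd14b (0.834). Hmox1 had too few UMIs for this.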

How the data were processed

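Per the labels and methods, the authors sorted the cells, made a 10x Genomics Chromium 3′ library and counted UMIs with Cell Ranger 6.0.2 on mm10. The sample's extraction label describes a bulk RNA kit, but the values have the form of droplet counts. The deposited values are whole-number UMI counts per gene and barcode, not normalized. The study's filter (UMIs from 1000 to 50000, genes from 1000 to 6500, mitochondrial share below 7%) was applied here; 177 of the 1172 barcodes removed exceeded the UMI maximum. Each cell was scored on each marker list as the mean of standardised log levels, and took the class with the highest score if it was at least 1, led by 0.5 and had 2 markers detected. Scores are relative, so 2694 cells passed the limit on more than 1 list. Doublets were called with Scrublet in scanpy (268 cells, 3.51%, from 0.581% of megakaryocyte-erythroid progenitor to 9.26% of dendritic cells among classes of over 100 cells; 5.72% of erythroid cells) and kept, and removed in an alternative. No barcode occurred more than 1 time.

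Levels are summed UMIs per 1000000 with exact Poisson 95% intervals, ratios have exact conditional binomial intervals, and shares Clopper-Pearson intervals. There was 1 library, so no test was made. A gene was compared where the classes together held 50 UMIs, and a zero is read against 3 counts. Shares of cells with a UMI were also taken after thinning cells to 5000 UMIs, leaving out 99 shallower cells (3 erythroid, 3 monocyte and 11 stem). Shares of cells with more Fth1 than Ftl1 UMIs were taken without thinning. All 9 genes are named in each comparison. Other pathway genes were named if at least 4-fold apart between erythroid and monocyte or stem cells, at most 12 by size, and likeness was ranked among genes with at least 500 UMIs. The genes and lists were chosen with earlier results of these data known. The code for ratios and intervals was checked on simulated Poisson counts. That is the model the intervals assume, so the check cannot show whether the real counts follow it. Alternatives were the cell filter, the score limit, odd- or even-numbered markers, doublet removal, the denominator, per-cell means, thinning and the fold. Python 3.11.15 with numpy 2.4.6, scipy 1.17.1, pandas 2.3.3 and scanpy 1.11.5 was used. Values of some genes that met these rules are not reported here.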

Additional observations from a re-analysis of the deposited data

Results flagged for a closer look

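The cell filter removed 2 barcodes with macrophage markers that held Hmox1 RNA, 1 of them also Slc40a1 RNA, at levels above the cells kept. Only the alternative without a cell filter uses them. All removed barcodes together held 689 Slc40a1 UMIs, of which these 2 held 4, and 32 Hmox1 UMIs, of which they held 21. Of the 4 barcodes with UMIs for at least 5 of 10 macrophage markers, 2 had been removed, with 949 and 1058 UMIs in all, near the lower limit. They held 9 and 12 Hmox1 UMIs, together 21 of the 270 of the whole matrix (10460 CPM, 95% interval 6480 to 16000, against 1.57 CPM in kept cells). The first held 4 Slc40a1 UMIs and the other held 0 (1993 CPM over both, 543 to 5100, against 16.8 CPM in kept cells). They also held 51 Fth1 and 24 Ftl1 UMIs. The 2 kept barcodes of this kind held 12 more Hmox1 UMIs, 8 of them in an unclassed cell. These barcodes were found by their markers after the values had been seen, and no test was made of them.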

How the results depend on the processing

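The number of genes past 2-fold in erythroid over stem cells stayed at 7 under the alternatives run, and 5 were past a 3-fold limit. In erythroid over monocyte cells it stayed at 8, also at 1.5-fold and 3-fold. In monocyte over stem cells the count of 2 became 1 with the stricter cell filter, no cell filter, the looser score limit and the even-numbered markers, 5 at 1.5-fold and 0 at 3-fold. In late over early erythroid cells the count of 4 became 1 with the odd-numbered markers and 1 at 3-fold. The Fth1 to Ftl1 ratio of monocyte cells (0.794) was 0.762 with the stricter score limit, 0.828 with odd-numbered markers and 0.817 after thinning, and that of stem cells (1.34) was 1.5 with the stricter cell filter, 1.29 with the stricter score limit and 1.42 with even-numbered markers. The cause was not tested. Of 395 recomputed ratios of single genes, 390 kept their side of 1, 329 stayed within the counting interval, 19 moved by over 1.5 times and none past 2-fold reversed. The 5 that did not keep their side were all small or from few UMIs: Slc25a38 and Slc40a1 in monocyte over stem cells (Slc40a1 at 0.871, 1.96 by per-cell means, 2.20 thinned and 0.394 without the macrophage-marked cell) and Hmox1 in late over early erythroid cells. The macrophage alternative and the wider set for the ferritin ratio were chosen after seeing the data. No paired analysis was possible because there was 1 library of 1 group. With 1 library, variation between mice could not be measured, and Hmox1 (238 UMIs in kept cells) was too sparse for most comparisons.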
